A study of Mus musculus with 12 samples.

Results

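The 6 genes that encode the main subunits of AMP-activated protein kinase (AMPK) were followed through bulk RNA sequencing of the mouse hypothalamus. They were taken from the table of read counts by the symbols of its 78334 gene IDs, and all 6 were found and tested. The catalytic alpha subunits are encoded by Prkaa1 and Prkaa2, the scaffolding beta subunits by Prkab1 and Prkab2, and the nucleotide-sensing gamma subunits by Prkag1 and Prkag2. A further gamma gene, Prkag3, was hardly detected, with 47 reads over all 12 libraries.

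The mice were male C57BL/6 animals, 8 weeks old at the start. Control mice (C, n = 3) stayed on standard chow and received vehicle by gavage. Mice with obesity (Ob, n = 3) were fed a high-fat diet (HFD) with 60% of its energy as fat, for 8 weeks before the gavage began at 16 weeks of age, and also received vehicle. The remaining mice, also labelled as obese on the HFD, were gavaged daily for 28 days with resveratrol at 2.25 mg/kg (Ob + RSV, n = 3), 200 mg/kg of aged garlic extract (Ob + EAE, n = 2) or curcumin at 50 mg/kg (Ob + CUR, n = 1). The labels place every treated group among the mice with obesity on the HFD but do not spell out the diet of the garlic and curcumin animals during gavage, and no lean treated group was analysed here. RSV is a plant polyphenol, curcumin is the yellow pigment of turmeric, and the garlic extract is a mixture. The methods of the study call the 3 libraries of C, Ob and Ob + RSV biological replicates but do not say that each came from 1 animal. Nothing in the sources states either for the Ob + EAE pair, so p-values measure the spread between these samples, which may be technical.

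AMPK is a heterotrimer of 1 alpha, 1 beta and 1 gamma subunit. Binding of AMP or ADP to the gamma subunit, when cellular energy is low, favours phosphorylation of the activation loop of the alpha subunit by upstream kinases, and the active kinase switches on ATP-producing routes and switches off synthesis of fatty acids and sterols. In the hypothalamus it is known as a sensor that responds to hunger and satiety signals and influences food intake. Its activity is set largely by phosphorylation and nucleotide binding, neither of which was measured; the values below are transcript levels of the subunits.

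Libraries held between 15655156 and 26284661 counts. Genes with at least 1 read numbered from 24450 to 38081 per library. C replicate 2, Ob replicate 1 and Ob + RSV replicate 2 had the fewest, at 24450 to 26123, and results are also given without these 3 libraries where they change. The Ob + EAE and Ob + CUR libraries had the most, at 37165 to 38081. The libraries of C, Ob and Ob + RSV carried hypothalamic marker RNAs (Pomc, Agrp, Npy, Hcrt, Pmch, Oxt, Avp, Nkx2-1 and Sim1) at a summed level of 976 to 2974 CPM (reads scaled to a common library size), and Agrp was at 0 in 2 of the 12 libraries. The list summed to 882 and 1083 CPM in the Ob + EAE libraries and to 261 CPM in the Ob + CUR library.

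Levels are given as CPM scaled by the trimmed mean of M-values (TMM). Between libraries this scale compares 1 gene with itself. To compare genes with one another, reads were divided by the total length of the exons of each gene. Per kilobase, the gamma and alpha1 transcripts were the more abundant. The median over 12 libraries was 10.9 CPM per kb for Prkag1 (6.74 to 14.5), 9.83 for Prkag2 (8.82 to 10.8) and 9.52 for Prkaa1 (6.61 to 11.6). These 3 ranges overlap by this length. The place of Prkag2 depends on the length used, as its longest transcript has 3331 bases against 6480 for all its exons. The beta genes followed, with 5.88 for Prkab2 (4.45 to 8.73) and 5.69 for Prkab1 (4.00 to 7.94), and their ranges overlap as well. Prkaa2 was lowest at 2.89 CPM per kb (1.87 to 4.13), and Prkag3 was at 0.048.

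The members differed in how much they moved between libraries. Prkag2 was the steadiest, with a coefficient of variation of 6.16% over the 12 libraries and a highest level 1.23-fold above its lowest. Prkaa2 and Prkag1 varied most, with coefficients of 30.3% and 30.0% and fold ranges of 2.21 and 2.15. Prkaa1, Prkab2 and Prkab1 lay between, at 18.8%, 18.5% and 17.3%. Counting error alone would give 2.83% for Prkag2 and 4.70% to 4.93% for Prkaa2 and Prkag1 at their median counts. Reads per library ran from 217 (Prkab1) to 1593 (Prkag2), so counting error was below the spread over the 12 libraries for each of the 6.

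**Figure D1:**
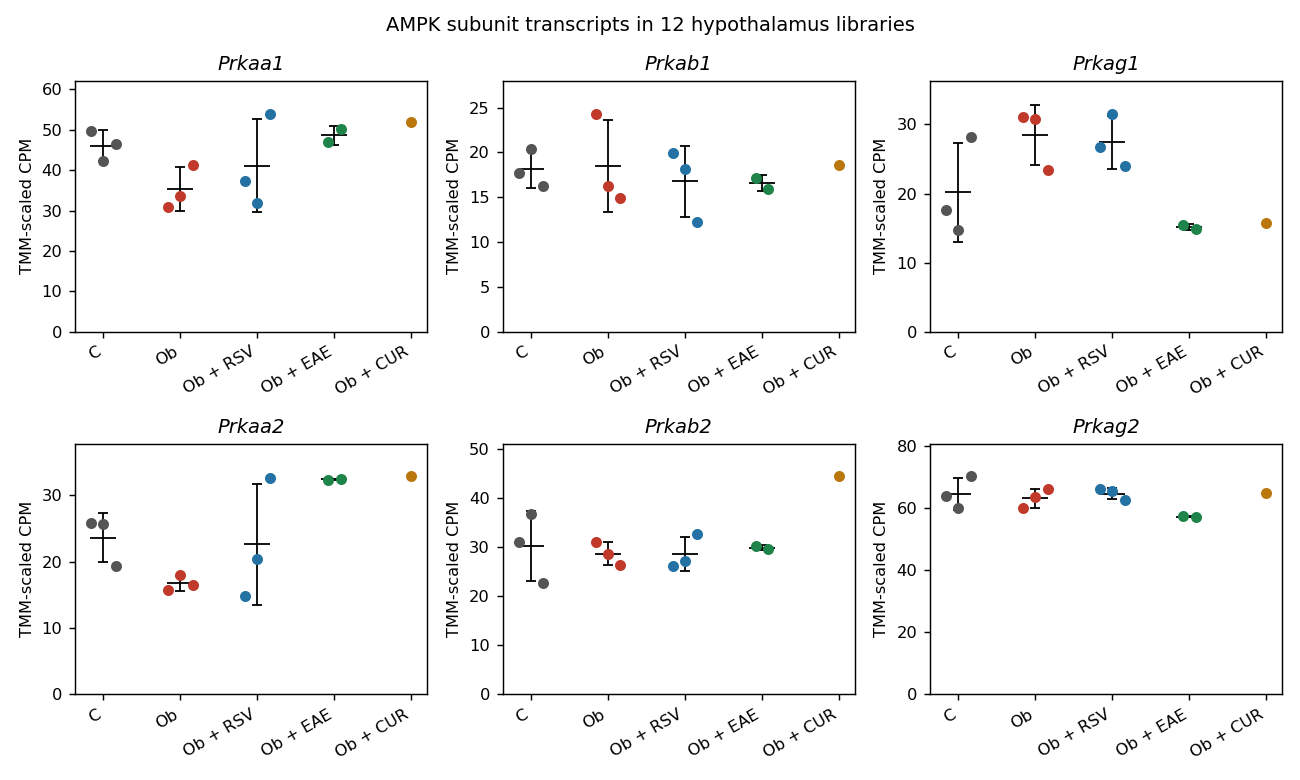
Level of each subunit transcript (TMM-scaled CPM, linear axes from 0) in the 12 libraries by group. Points are libraries, and the bar and whiskers are the mean and SD of groups with more than 1 library. Prkag2 stays between 57.2 and 70.2 CPM throughout, whereas Prkaa2 is above every C and Ob library, and Prkag1 below every Ob library, in Ob + EAE and Ob + CUR.

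Of the catalytic genes, Prkaa1 stood at 49.7, 42.2 and 46.5 CPM in the C libraries and at 30.8, 33.6 and 41.4 CPM in the Ob libraries. The highest Ob library (41.4 CPM) was narrowly below the lowest C library (42.2 CPM) on this scale, but above it without TMM scaling. In Ob + RSV it was 37.4, 31.9 and 54.0 CPM, a spread that covers nearly the whole series. Both Ob + EAE libraries, at 47.0 and 50.2 CPM, and the Ob + CUR library, at 52.0 CPM, lay above all Ob libraries.

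Prkaa2, which encodes the alpha2 catalytic subunit, was likewise lower in every Ob than in every C library. It was 25.8, 25.7 and 19.4 CPM in C and 15.7, 18.0 and 16.6 CPM in Ob. The Ob + RSV libraries were at 14.9, 20.4 and 32.7 CPM, so replicate 3 stood well apart from the other two. Ob + EAE was at 32.3 and 32.5 CPM and Ob + CUR at 32.9 CPM, above every C and Ob library.

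The beta genes, whose products hold the complex together and bind glycogen, had overlapping values in C, Ob and Ob + RSV. Prkab1 was 17.7, 20.4 and 16.2 CPM in C, 24.3, 16.2 and 14.9 in Ob, 19.9, 18.1 and 12.3 in Ob + RSV, 17.2 and 15.9 in Ob + EAE, with 18.6 in Ob + CUR. Prkab2 was 31.1, 36.9 and 22.7 CPM in C, 31.1, 28.6 and 26.4 in Ob, 26.3, 27.2 and 32.7 in Ob + RSV, 30.3 and 29.6 in Ob + EAE, with 44.5 in Ob + CUR. The curcumin library was the highest of all for Prkab2.

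Prkag1, the widely expressed gamma1 subunit, ran the other way to the alpha genes. It was 17.6, 14.7 and 28.2 CPM in C and 31.1, 30.8 and 23.4 CPM in Ob. C replicate 3 was the only control library within the Ob range. Ob + RSV was at 26.7, 31.6 and 24.0 CPM, overlapping Ob, whereas Ob + EAE (15.4 and 14.8 CPM) and Ob + CUR (15.7 CPM) lay below all Ob libraries. Prkag2, the gamma2 subunit, was 63.8, 59.9 and 70.2 CPM in C, 59.9, 63.6 and 66.1 in Ob, 66.1, 65.4 and 62.6 in Ob + RSV, 57.4 and 57.2 in Ob + EAE, with 64.8 in Ob + CUR. Some exons of Prkag1 and Prkag2 lie opposite those of antisense genes, over 950 bases (B130046B21Rik) for Prkag1 and over 142 and 795 bases (Prkag2os1 and Prkag2os2) for Prkag2. The sources used here do not say whether the counting used strand, and reads from these stretches may not be told apart.

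Prkag3 encodes gamma3, known from skeletal muscle. Its counts were 7, 6 and 7 in C, 0, 2 and 4 in Ob, 11, 0 and 1 in Ob + RSV, 0 and 2 in Ob + EAE, with 7 in Ob + CUR. No difference was detectable at this depth.

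To ask whether diet-induced obesity changed the subunits, Ob was compared with C by edgeR's quasi-likelihood test across 33534 genes, where a call needed an absolute log2 fold change (log2FC) of 1 or more and an adjusted p (Benjamini-Hochberg) under 0.05. None of the 6 was called, as was no gene of the table (0% called). DESeq2 on the same 6 libraries also called 0 members and 0 genes. In the main fit no member had an unadjusted p under 0.05, against 2.75% of all genes. The smallest was 0.0514 (edgeR), for Prkag1. Over 19 alternatives the unadjusted p was under 0.05 in 9 for Prkag1 and in 1 for Prkaa2. With replicate numbers as a block, edgeR gave 0.0196 for Prkag1 and 0.0442 for Prkaa2. The groups did not overlap for 2 of 6 members (Prkaa1 and Prkaa2, both lower in Ob), against 7.83% of all genes. That of Prkaa1 rested on TMM scaling. Without it, Ob replicate 3 was at 43.8 CPM and C replicate 2 at 42.2 CPM. Of 13 lists of cell type and region markers, summed levels were separated for 1, microglia (Cx3cr1, Csf1r, Aif1, P2ry12 and Tmem119), at 88.4 to 132 CPM in Ob and 139 to 142 in C, although 0 of its 5 genes were separated one by one and none was at 0. Its part in the alpha values was not tested.

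Prkaa1 had a log2FC of −0.36 ± 0.23 (SE; 95% interval −0.83 to 0.12). Prkaa2 had −0.47 ± 0.27 (−1.03 to 0.09), and −0.28 once each library's trend on exon length and GC content was removed. Prkag1 had 0.52 ± 0.25 (−0.00 to 1.04), or 28.4 ± 4.37 CPM in Ob against 20.2 ± 7.13 in C (SD, n = 3 each). Its size depended on the libraries fitted: the log2FC rose to 0.85 without C replicate 3, and fell to 0.33 without C replicate 2 and to 0.27 without the 3 libraries of fewest genes. The adjusted p of each member was 1, and it stayed above 0.41 under every alternative. Prkab1 (0.05), Prkab2 (−0.04) and Prkag2 (−0.01) had intervals of −0.49 to 0.60, −0.52 to 0.43 and −0.41 to 0.40, so changes of up to about 1.3-fold in Prkag2 and 1.5-fold in Prkab1 remain within the error.

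Resveratrol is widely described as a compound that leads to AMPK activation, and the next comparison asked whether it altered the subunit transcripts in mice with obesity. Against Ob, 0 of 6 members were called in Ob + RSV (edgeR; 0% of all genes) and none had an unadjusted p under 0.05 (3.16% of all genes). DESeq2 called 0 members and 0 genes. No member was without overlap, against 7.13% of all genes. The largest log2FC was that of Prkaa2, 0.42 ± 0.27 (−0.14 to 0.98), with 22.6 ± 9.11 CPM in Ob + RSV and 16.8 ± 1.14 in Ob. It was 0.02 without Ob + RSV replicate 3 and 0.67 without Ob + RSV replicate 1, and 0.20 with the length and GC trends removed. Its unadjusted p was under 0.05 in 1 of 19 alternatives. Prkaa1 followed at 0.20 ± 0.23 (−0.28 to 0.67). It turned to −0.09 without Ob + RSV replicate 3 and was 0.09 with those trends removed. Prkab1 (−0.17; −0.72 to 0.37), Prkag1 (−0.08; −0.60 to 0.44), Prkab2 (−0.02; −0.50 to 0.45) and Prkag2 (0.00; −0.40 to 0.41) were closer to 0.

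The animals given RSV were also set against lean controls. Again 0 of 6 members and 0% of genes were called by edgeR, with 0 members and 1 gene called by DESeq2, and no member had an unadjusted p under 0.05 (2.87% of all genes) or separated groups (5.57% of all genes). Prkag1 was the member farthest from 0, at 0.44 ± 0.25 (−0.08 to 0.95). It was 0.77 without C replicate 3 and 0.14 without the 3 libraries of fewest genes. Its unadjusted p was under 0.05 in 4 of 19 alternatives. Both alpha genes were near control level on average, with log2FC of −0.16 (−0.63 to 0.31) for Prkaa1 and −0.05 (−0.60 to 0.51) for Prkaa2, and both rested on Ob + RSV replicate 3: without it they were −0.45 and −0.45. These 3 comparisons share libraries in pairs, so their values are not independent of one another.

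**Figure D2:**
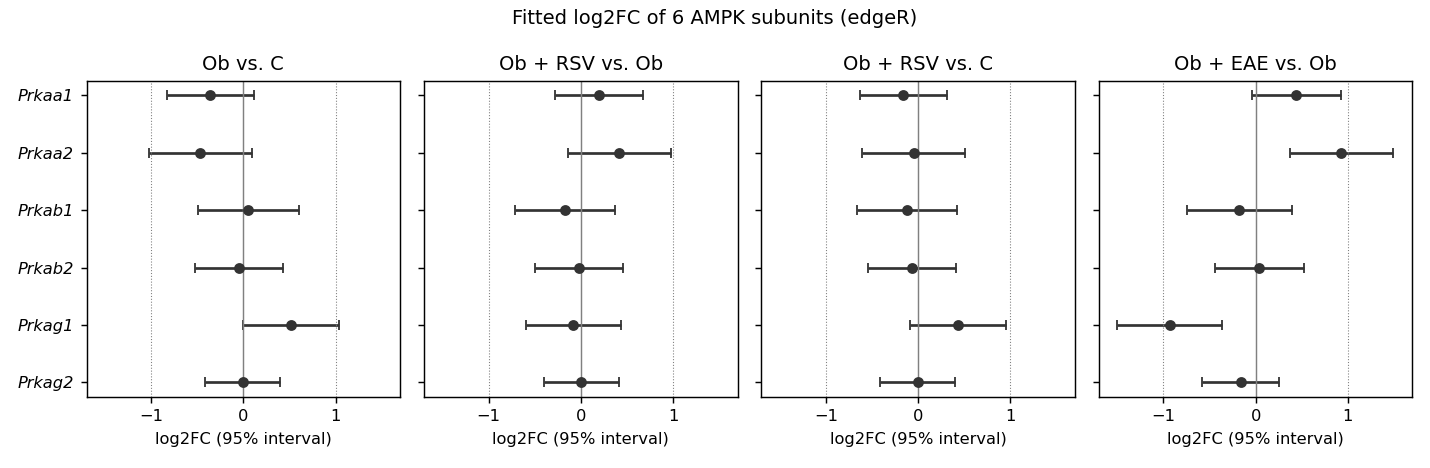
Fitted log2FC of the 6 subunits in 4 comparisons (points, edgeR) with 95% intervals (bars). Dotted lines mark a log2FC of 1 in either direction. Only Prkaa2 (0.93) and Prkag1 (−0.93) in Ob + EAE vs. Ob have intervals that leave out 0.

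Among the 4 tested comparisons, the subunits differed most between Ob + EAE and Ob. Prkaa2 was 1.90-fold higher, at 32.4 ± 0.126 CPM (SD, n = 2) against 16.8 ± 1.14 (SD, n = 3), with a log2FC of 0.93 ± 0.27 (0.37 to 1.49; edgeR adjusted p = 0.0662). Prkag1 was at 0.525 of its Ob level, 15.1 ± 0.439 against 28.4 ± 4.37 CPM, with a log2FC of −0.93 ± 0.28 (−1.50 to −0.36; edgeR adjusted p = 0.0720). Neither passed the adjusted threshold. The SD of the Ob + EAE pair was 0.388% of its mean for Prkaa2 and 2.90% for Prkag1. Both are below counting error, at 4.70% and 4.93% at the median counts, so these SDs say little about spread between samples. Over 22 alternatives the adjusted p ran from 0.000362 to 0.587 for Prkaa2 and from 0.00282 to 0.799 for Prkag1. Prkaa1 had 0.44 ± 0.24 (edgeR adjusted p = 0.451), Prkag2 −0.16 ± 0.20 (adjusted p = 0.855), Prkab1 −0.18 ± 0.28 (adjusted p = 0.907) and Prkab2 0.04 ± 0.24 (adjusted p = 0.993).

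In this comparison 0 of 6 members were called, against 1.84% of the 36164 genes tested, and 0 of 6 had an adjusted p under 0.05 without regard to fold, against 2.38%. DESeq2 also called 0 members, although it gave both Prkaa2 (adjusted p = 0.000362) and Prkag1 (adjusted p = 0.00282) values under 0.05 with log2FC of 0.94 and −0.92. An unadjusted p under 0.05 was found for 2 of 6 members, against 13.4% of all genes. The groups did not overlap for 4 of 6 (Prkaa1 and Prkaa2 higher, Prkag1 and Prkag2 lower in Ob + EAE), against 38.8% of all genes. Without TMM scaling the groups overlapped for Prkag2, at 57.9 and 59.1 CPM in Ob + EAE against 56.5 to 69.9 in Ob.

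Several other measures moved with the Ob + EAE libraries. Their levels relative to the mean of all libraries rose with exon length (Spearman's rho of 0.167 and 0.212 across 23833 genes, which are not independent replicates), whereas those of the Ob libraries fell with it (−0.140, −0.0986 and −0.107). Prkaa2 has long exons in total (7969 bases, longer than 88.3% of genes) of low GC content (40.7%), and Prkag1 is short (2175 bases) with 52.8% GC. With each library's trend on length and GC removed, the log2FC was 0.53 (adjusted p = 0.355) for Prkaa2, −0.70 (adjusted p = 0.208) for Prkag1 and −0.41 for Prkag2. Endothelial markers (Cldn5, Pecam1, Flt1 and Cdh5) summed to 169 and 175 CPM in Ob + EAE against 38.7 to 88.2 in Ob, and 4 of 4 lay above all Ob libraries. Of the hypothalamic markers, 5 of 9 were below all Ob libraries (Pomc, Npy, Oxt, Avp and Nkx2-1) and Sim1 was above them. The list summed to 1218 to 2974 CPM in Ob. Oligodendrocyte markers summed to 4493 and 4933 CPM in Ob + EAE against 6156 to 6529 in Ob, with 2 of 5 below all Ob libraries. These counts of markers stand beside the 38.8% of all genes whose groups did not overlap. The part of these measures in the subunit values was not tested. In bulk tissue, fewer cells of a type and less RNA per cell cannot be told apart.

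**Figure D3:**
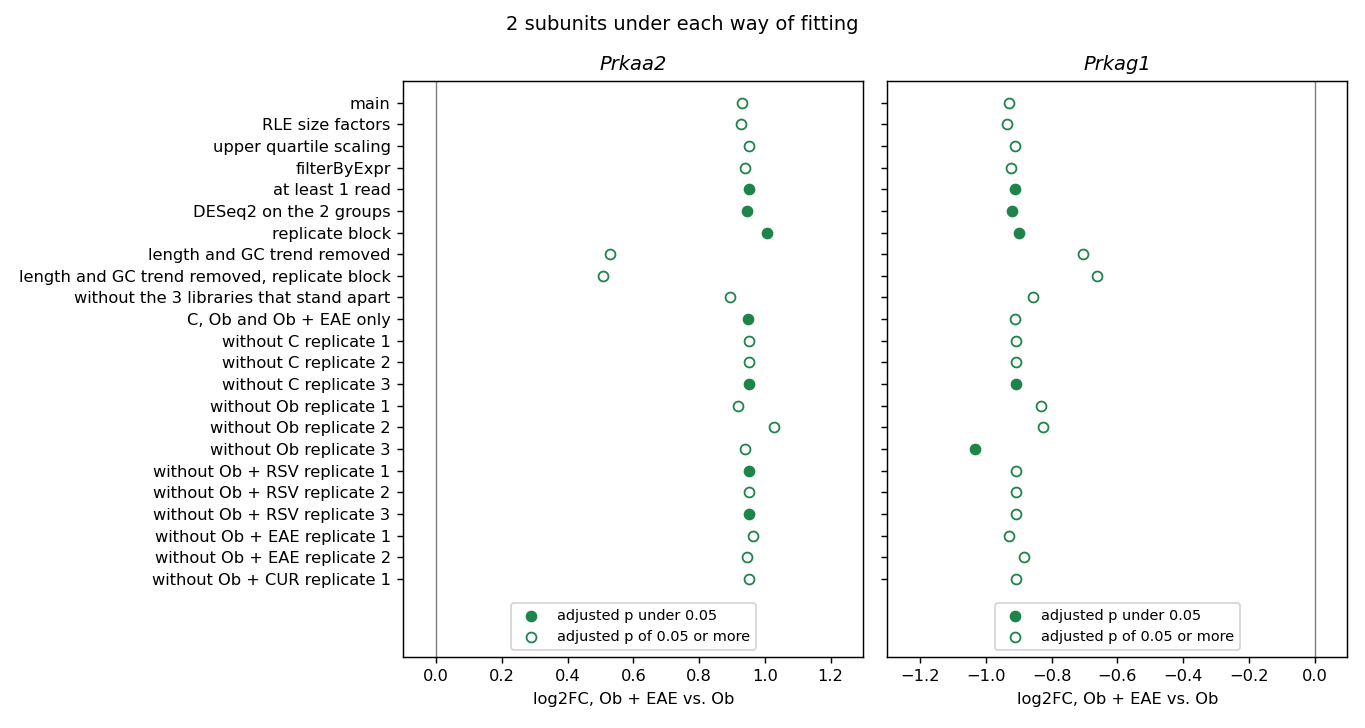
log2FC of Prkaa2 and Prkag1 in Ob + EAE vs. Ob under the main analysis and 22 alternatives, 1 per line (the 3 libraries that stand apart are those with the fewest genes). Filled points have an adjusted p under 0.05 (7 for Prkaa2, 5 for Prkag1), and the points lie between 0.51 and 1.03 for Prkaa2 and between −1.03 and −0.66 for Prkag1.

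The single curcumin library allows no test. Its values, with exact Poisson intervals that cover counting error only, were 52.0 CPM for Prkaa1 (49.2 to 55.0) and 32.9 for Prkaa2 (30.6 to 35.3). For Prkab2 the level was 44.5 CPM (41.8 to 47.2). These 3 values lay above every C and every Ob library, but the interval of Prkaa1 takes in C replicate 1 (49.7 CPM). Prkag1, at 15.7 CPM (14.2 to 17.4), was below the Ob libraries and within the range of C. Prkab1 (18.6 CPM) and Prkag2 (64.8 CPM) were inside both ranges. On the log2 scale the ratios to the Ob mean were 0.56 for Prkaa1, 0.97 for Prkaa2, 0.63 for Prkab2, −0.85 for Prkag1, 0.01 for Prkab1 and 0.04 for Prkag2. This library too had high endothelial markers (189 CPM) and low hypothalamic markers (261 CPM), and its levels rose with exon length (rho 0.202). Their part in its values was not tested.

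Each AMPK complex takes 1 isoform of each class, so the shares within a class were computed per kilobase in each library. Prkaa1 made up a median of 75.0% of the alpha transcripts (71.3% to 81.1%) and Prkaa2 the rest. Its mean share was 77.0% ± 3.33 in C, 78.1% ± 2.61 in Ob and 76.0% ± 4.50 in Ob + RSV (SD, n = 3 each), and 71.3% and 72.6% in the Ob + EAE libraries. Prkab1 and Prkab2 were close to equal, with a median Prkab1 share of 48.5% (38.4% to 56.5%). Prkag1 contributed 47.0% ± 6.45 of the gamma transcripts in C, 57.0% ± 5.10 in Ob and 55.5% ± 3.04 in Ob + RSV, 43.5% and 44.5% in the Ob + EAE libraries and 41.8% in Ob + CUR. The Ob and C ranges of this share overlap (51.2% to 60.7% against 41.9% to 54.3%). Which isoform leads depends on the length used. With the longest transcript in place of all exons, the medians were 57.6% for Prkab1 and 42.6% for Prkag1, while Prkaa1 stayed at 75.0%.

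**Figure D4:**
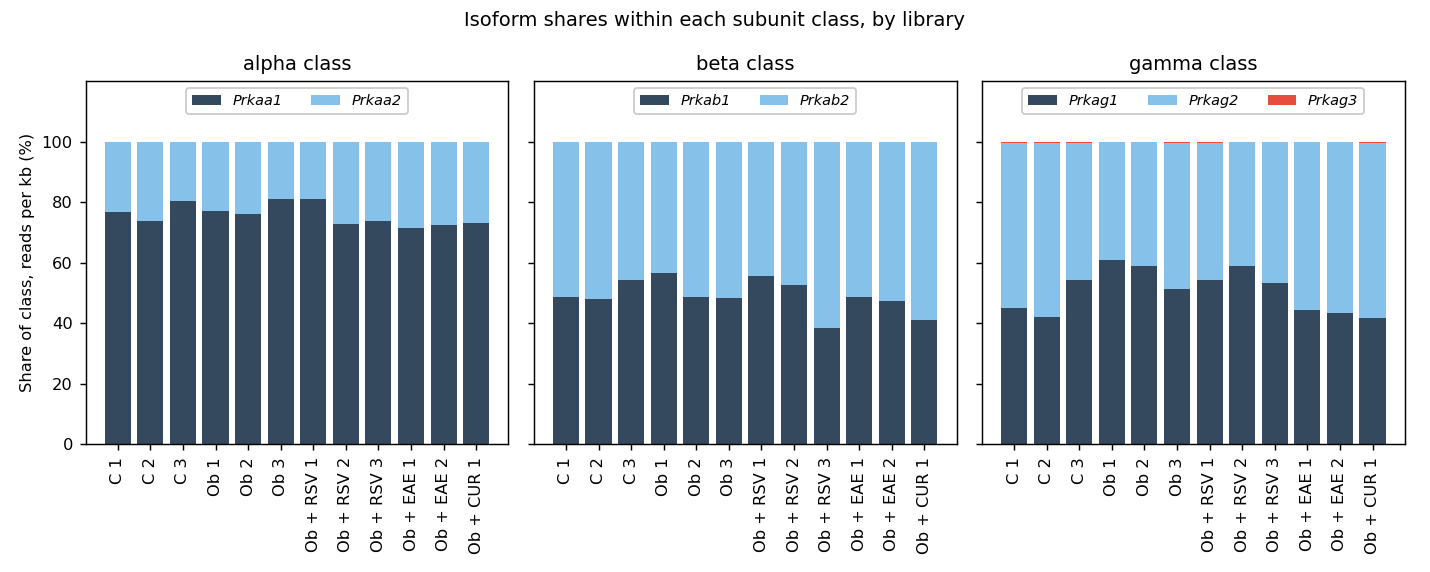
Share (%) of each isoform in the reads per kilobase of its class, by library, with numbers giving the replicate. Bars are stacked to 100%; Prkag3 is a sliver of at most 0.576%. The Prkag1 share is between 51.2% and 60.7% in the Ob libraries and between 41.8% and 44.5% in Ob + EAE and Ob + CUR.

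Summed per class, the alpha genes reached 12.9 ± 0.899 CPM per kb in C, 9.68 ± 1.20 in Ob and 11.7 ± 3.50 in Ob + RSV, and 14.1 and 14.9 in the Ob + EAE libraries. The gamma sum was 19.3 ± 4.07 in C, 22.9 ± 1.61 in Ob and 22.6 ± 1.94 in Ob + RSV, and 15.7 and 16.0 in Ob + EAE. The beta sum stayed between 11.1 and 11.8 on average in these 4 groups. These sums follow the member values and were not tested.

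Across the 12 libraries, which share their depth and base composition between genes, Prkaa1 and Prkaa2 rose and fell together on the log2 scale (Pearson's r = 0.788, Spearman's rho = 0.860; r = 0.832 without the 3 libraries of fewest genes). Prkag1 ran against both, with r = −0.768 to Prkaa2 (rho = −0.580) and r = −0.704 to Prkaa1 (rho = −0.657), and −0.778 and −0.662 without those libraries. The correlation of Prkab1 with Prkag1 was 0.039. The first 3 are the largest in size among 15 pairs by Pearson's r over 12 libraries. By rho, or without the 3 libraries, Prkaa2 and Prkab2 (rho = 0.622, r = 0.681 without those libraries) rank above one of these pairs. So do Prkag1 and Prkag2 without the 3 libraries (r = 0.6815, against 0.549 over all 12). All are given as a description of libraries from 5 unlike groups. Marker sums moved with these genes as well. The hypothalamic sum had r = −0.703 to Prkaa1 (rho = −0.825) and r = −0.713 to Prkaa2 (rho = −0.853), the microglial sum r = 0.686 to Prkaa1 (rho = 0.580), and the oligodendrocyte sum r = −0.718 to Prkaa2 (rho = −0.601) and r = 0.846 to Prkag1 (rho = 0.727). The largest r in size of any marker list to Prkaa1 was that of muscle, at −0.756 (rho = −0.734). Muscle markers summed to only 5.71 to 13.1 CPM. Their part in the pattern was not tested. Genes whose pattern was most like that of a member, among 23833 genes, were Xiap (r = 0.977), Elavl4 (0.974) and Ttc39b (0.970) for Prkaa1, Kif1b (0.960), Kcnk9 (0.955) and 9930111J21Rik1 (0.952) for Prkaa2, and Gm47445 (0.956), Nup85 (0.952) and Abhd11 (0.948) for Prkag1. For Prkab1 they were Alyref (0.910), Chst8 (0.909) and Tmem238 (0.895), for Prkab2 Zmpste24 (0.884), Man2a1 (0.882) and Agmo (0.870), and for Prkag2 Cyb561d1 (0.886), Lrrfip2 (0.882) and Apool (0.838). The likeness of Man2a1 to Prkab2 rested on few libraries, as r was 0.514 without Ob + CUR replicate 1 and C replicate 3. Levels of 9930111J21Rik1 and Gm47445 were very low, at means of 0.220 and 0.299 CPM, so their r rests on few reads.

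The 250 bases upstream of the RefSeq start are shown for the 3 members that moved together or against each other. Capitals mark GC boxes (GGGCGG, the binding sequence of Sp factors) and CCAAT boxes, on either strand. The sequences are from the build GRCm38.p6, an older build than the GRCm39 named for the counts. The window of Prkaa1 is chr15:5143611-5143860 on the plus strand, that of Prkaa2 chr4:105109899-105110148 on the minus strand and that of Prkag1 chr15:98831509-98831758 on the minus strand.
Prkaa1: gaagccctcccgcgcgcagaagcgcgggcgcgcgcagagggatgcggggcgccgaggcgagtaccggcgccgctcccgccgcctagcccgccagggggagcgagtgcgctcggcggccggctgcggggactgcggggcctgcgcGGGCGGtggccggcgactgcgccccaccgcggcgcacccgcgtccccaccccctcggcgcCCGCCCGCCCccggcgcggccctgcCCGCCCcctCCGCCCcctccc
Prkaa2: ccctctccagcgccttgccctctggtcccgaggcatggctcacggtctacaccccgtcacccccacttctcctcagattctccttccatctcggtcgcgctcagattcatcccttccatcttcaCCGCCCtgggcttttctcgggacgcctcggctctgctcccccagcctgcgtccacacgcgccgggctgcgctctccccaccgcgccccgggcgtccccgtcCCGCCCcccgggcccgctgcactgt
Prkag1: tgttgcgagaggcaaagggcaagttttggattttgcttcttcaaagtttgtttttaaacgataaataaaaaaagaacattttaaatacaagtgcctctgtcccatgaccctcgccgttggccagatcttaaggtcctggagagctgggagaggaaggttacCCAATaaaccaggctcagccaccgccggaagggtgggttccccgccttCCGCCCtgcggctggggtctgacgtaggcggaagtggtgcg

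The 2 alpha windows are richer in G and C, at 85.2% for Prkaa1 and 70.0% for Prkaa2, with 45 and 24 CG dinucleotides, than that of Prkag1, at 51.6% with 12. This is not particular to the alpha genes. Prkab1 was at 65.6% with 24 CG dinucleotides and Prkab2 at 69.2% with 18. The windows of Prkag2 were at 73.2%, 48.4% and 77.2%, with 23, 4 and 34. The median of 32851 RefSeq windows of this length was 52.4% with 6 CG dinucleotides. Of these windows 32.7% hold a GC box and 33.9% a CCAAT box. A GC box occurred 5 times for Prkaa1, with overlaps, 2 times for Prkaa2 and 1 time for Prkag1, and also for Prkab2 and Prkag2, but not for Prkab1. A CCAAT box occurred for Prkag1 and Prkag2. A CRE (TGACGTCA; 1.55% of all windows), an E-box (CACGTG; 6.02%) and a TATA box (TATAAA; 12.4%) were searched for on both strands and were in none of the 8 windows of the 6 members, of which Prkag2 has 3. Motif matches describe the letters of these windows and say nothing of factors bound in the hypothalamus.

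The subunits work among upstream kinases, substrates and regulators, and 59 genes in 4 lists were followed beside them. In Ob vs. C, 0 of 59 passed the adjusted threshold, and 3 had an unadjusted p under 0.05, against 2.75% of all genes. Stk11, encoding LKB1, the main upstream kinase of AMPK, was 118 CPM on average in Ob and 86.9 in C (log2FC 0.46 ± 0.22; edgeR adjusted p = 1), with 138, 123 and 92.3 CPM in the Ob libraries and 95.8, 75.5 and 89.5 in the C libraries. Lamtor2, a part of the lysosomal Ragulator complex, had a log2FC of 0.57 ± 0.25, and Sik2, a salt-inducible kinase of the AMPK-related family that also depends on LKB1, had −1.06 ± 0.48, both with an adjusted p of 1. Values of C and Ob overlapped for all 3. Lamtor2 was at 0.24 without Ob replicate 1 and Sik2 at −0.66 without C replicate 1, and without the 3 libraries of fewest genes the log2FC was 0.25 for Stk11, 0.21 for Lamtor2 and −0.63 for Sik2. With the length and GC trends removed, Lamtor2 was at 0.32. AMPK-related kinases had a negative log2FC in 10 of 13, with a median of −0.13 against −0.00 over all genes, of which 48.8% were positive. The other lists were negative in 5 of 9 (upstream kinases and partners), 13 of 25 (substrates and effectors) and 4 of 12 (lysosomal regulators and phosphatases). In Ob + RSV vs. Ob, the 1 gene of 59 with an unadjusted p under 0.05 (3.16% of all genes) was Ppargc1a, encoding the coactivator PGC-1alpha, a substrate of AMPK. It was 32.2, 36.6 and 46.8 CPM in Ob + RSV and 30.4, 22.6 and 23.3 in Ob, without overlap (log2FC 0.58 ± 0.25; edgeR adjusted p = 1). Without Ob + RSV replicate 3 its log2FC was 0.38, and with the length and GC trends removed it was 0.41. Groups did not overlap for 7.13% of all genes in this comparison. In Ob + RSV vs. C, none of the 59 had an unadjusted p under 0.05.

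In Ob + EAE vs. Ob, 2 of the 59 genes passed the adjusted threshold and were called, against 1.84% of all genes called. Lamtor2 fell to 31.3 and 32.3 CPM, against 113, 68.3 and 55.3 in Ob (log2FC −1.33 ± 0.29; edgeR adjusted p = 0.0146). Sik2 rose to 14.2 and 20.9 CPM, against 2.13, 5.75 and 5.44 in Ob (log2FC 1.96 ± 0.47; edgeR adjusted p = 0.0235). The curcumin library was on the same side for both, with 32.5 CPM of Lamtor2 and 21.0 of Sik2. Both calls were lost with the stricter filter on low counts (adjusted p = 0.0663 and 0.0759), with the length and GC trends removed (0.0553 and 0.0723), without Ob replicate 1 (0.206 and 0.213) and without the 3 libraries of fewest genes (0.316 and 0.339). The log2FC with the stricter filter were −1.32 for Lamtor2 and 1.97 for Sik2, and with the trends removed −0.88 and 1.57. Without Ob + EAE replicate 2 they were lost as well (0.280 and 0.393), and that of Lamtor2 without Ob + EAE replicate 1 (0.116). Upstream kinases and partners had an unadjusted p under 0.05 in 1 of 9 (higher) and 2 of 9 (lower), substrates and effectors in 4 of 25 and 1 of 25, AMPK-related kinases in 3 of 13 and 1 of 13, and lysosomal regulators and phosphatases in 1 of 12 and 4 of 12, against 13.4% of all genes in either direction. The median log2FC of the lists was 0.13, 0.08, 0.28 and −0.06, against 0.05 over all genes tested.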

How the data were processed

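The members and gene lists were chosen with earlier results of these data known. Poly(A)-selected, stranded TruSeq libraries were sequenced as paired 150-base reads from hypothalamic RNA extracted with Trizol. The authors aligned reads with HISAT2 and counted them with featureCounts, and they deposited whole-number counts per gene, 1 column per library, without normalization. The submitters' processing notes name GRCm39. The sources used here give neither the strand setting nor the annotation release. Of the 78334 IDs, 51535 (65.8%) matched a symbol by ID. Gene lengths, GC content and overlaps came from GENCODE vM21 on the older build GRCm38.

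Differential expression was tested with edgeR 4.0.16 in R 4.3.3 (glmQLFit, glmQLFTest) after TMM scaling, on genes whose reads summed to at least 10, in 1 fit of the 9 C, Ob and Ob + RSV libraries (6 residual degrees of freedom) and, for Ob + EAE vs. Ob, 1 fit of all 12 (7 residual degrees of freedom). P-values were adjusted by Benjamini-Hochberg over all genes tested. Standard errors were obtained as |log2FC|/√F. Alternatives used other scalings, filters, samples and DESeq2 1.42.0, and were tested on the whole table; scripts were checked on simulated counts. The alternatives for pathway genes were chosen after seeing the data. Named pathway genes are those with an adjusted p under 0.05, else up to 3 with the smallest unadjusted p under 0.05 per comparison; likeness is Pearson's r of log2 CPM (prior count 2) among genes that pass filterByExpr. Promoters are from RefSeq (GRCm38.p6) and all 6 members matched. Figures used Python 3.11.15, pandas 2.3.3 and matplotlib 3.10.9.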

Additional observations from a re-analysis of the deposited data

How the results depend on the processing

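Of 474 log2FC values of the 6 subunits under alternatives, 412 kept their direction and side of the threshold, 60 changed sign and 2 moved past the threshold. No subunit with a main log2FC over 0.20 in size changed sign. The calls of Ob vs. C, Ob + RSV vs. Ob and Ob + RSV vs. C were 0 for the subunits throughout. Over all genes, which had 0 calls there, keeping genes with at least 1 read gave 35, 11 and 32 calls, and DESeq2 gave 1 for Ob + RSV vs. C. For Ob + EAE vs. Ob, 665 genes were called, against 77 with filterByExpr, 1031 with at least 1 read, 1269 with DESeq2, 225 with length and GC trends removed and 1 without C replicate 2, Ob replicate 1 and Ob + RSV replicate 2. Leaving out 1 library at a time gave 0 to 11, 0 to 2, 0 to 3 and 18 to 1172 calls in the 4 comparisons, with 18 without Ob replicate 1 and 1172 without Ob replicate 3, and 0 to 1 subunit in Ob + EAE vs. Ob (Prkag1 without Ob replicate 3, log2FC −1.03, adjusted p = 0.0382). The cause of these shifts was not tested.

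Replicate numbers were not used as a block in the main fits. Deviations of libraries with the same number correlated between −0.0259 and 0.329 over 9 pairs, and those with different numbers between −0.308 and 0.151. Same-number pairs at 0.329 (Ob and Ob + RSV replicate 3), 0.255 (Ob and Ob + RSV replicate 1) and 0.166 (C and Ob replicate 3) exceeded every different-number pair. The remaining same-number pairs lay within the different-number range, from −0.0259 to 0.124. Whether replicate numbers mark a batch was not tested. With the replicate block, 50, 10, 35 and 1417 genes were called, and 1 subunit in Ob + EAE vs. Ob (Prkaa2, log2FC 1.01, adjusted p = 0.000911); block and trend removal together gave 41, 19, 40 and 831, with 0 subunits called (Prkaa2 in Ob + EAE vs. Ob, log2FC 0.51, adjusted p = 0.207).

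Values that changed sign were small. For Prkag2 in Ob vs. C they were 0.000734 (RLE scaling), 0.00659 (filterByExpr), 0.104 (trends removed), 0.109 (trends removed and block) and 0.0115 (12 libraries in 1 fit), and −0.0662 to 0.0693 leaving out 1 library. For Prkag2 in Ob + RSV vs. C they were 0.00940 (RLE), 0.0135 (upper quartile), 0.0186 (filterByExpr), 0.0156 (DESeq2), 0.000380 (block), 0.0845 (trends), 0.0924 (trends and block) and 0.0123 (12 libraries), and −0.0638 to 0.0717. For Prkag2 in Ob + RSV vs. Ob they were −0.0199 (trends), −0.0165 (trends and block) and −0.0383 (without the 3 libraries), and −0.0349 to 0.0462. Prkab1 in Ob vs. C gave −0.0676 (trends), −0.0804 (trends and block) and −0.101 (without the 3), and −0.179 to 0.180. It gave 0.0193 (without the 3), and −0.300 to 0.0746, in Ob + RSV vs. Ob, −0.228 to 0.0370 in Ob + RSV vs. C, and 0.0175 (trends), 0.0755 (without the 3), and −0.287 to 0.100 in Ob + EAE vs. Ob. Prkab2 in Ob vs. C gave 0.0670 (trends), 0.0760 (trends and block) and 0.0599 (without the 3), and −0.205 to 0.114. It gave 0.0744 (without the 3), and −0.161 to 0.0651, in Ob + RSV vs. Ob, 0.000200 (trends and block), 0.134 (without the 3), and −0.229 to 0.0899 in Ob + RSV vs. C, and −0.131 (trends) and −0.195 (trends and block) in Ob + EAE vs. Ob. Prkag1 in Ob + RSV vs. Ob gave 0.0658 (trends) and 0.0562 (trends and block). Prkaa2 in Ob + RSV vs. C gave 0.0779 (without the 3), and −0.449 to 0.202. Leaving out 1 library, Prkaa1 lay within −0.448 to 0.000599 for Ob + RSV vs. C, and within −0.0901 to 0.353 for Ob + RSV vs. Ob.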
